A study of Mus musculus with 6 samples.

Results

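The phagocyte NADPH oxidase was followed in LPS-stimulated N9 microglia through 6 genes, found in the deposited count table by their symbols among the 54532 genes listed: Cybb, Cyba, Ncf1, Ncf4, Nox1 and Nox4. N9 is an immortalized microglial line from mouse brain, and a single line stands here for microglia. RNA was sequenced from 3 control samples, which were untreated, and from 3 samples exposed to LPS, the endotoxin of gram-negative bacteria, at 1 µg/ml for 6 h. The labels number the replicates but do not say whether they were separate cultures, so p-values measure the spread between these samples. The comparison asks how LPS changed the messenger RNA of an enzyme that microglia use to make reactive oxygen species.

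The oxidase passes electrons from NADPH inside the cell across the membrane to oxygen and so makes superoxide. Cybb encodes NOX2 (gp91phox), the catalytic subunit, and Cyba encodes p22phox, its membrane partner, which also stabilizes it. Ncf1 (p47phox) and Ncf4 (p40phox) encode cytosolic subunits that wait until phosphorylation of p47phox and active Rac bring them to the membrane. Nox1 and Nox4 encode other catalytic subunits that also pair with p22phox. NOX1 is best known from colon epithelium and NOX4, which is active without cytosolic subunits, from kidney and mesenchymal cells.

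The libraries held between 16363767 and 17956772 counts. Levels are given as CPM, the usual depth-scaled counts, with library sizes normalized by TMM (edgeR's scaling for library composition, here with factors from 0.9646 to 1.036). A gene was called at a Benjamini-Hochberg adjusted p under 0.05 in edgeR's quasi-likelihood test over the 12296 genes that passed the filter on low counts, and it was a DEG if its absolute log2 fold change was also over 1.5. Microglial and macrophage markers were present, with 13 of 14 above 3 counts in at least 1 library and a summed level of 2040 to 2100 CPM in control and 2250 to 2310 CPM in LPS libraries. Not all defining microglial markers were expressed at a clear level, since Sall1 had at most 1 count in any library, P2ry12 3 to 6, Aif1 4 to 9 and Fcrls 2 to 12. The members of the list also moved in different directions, with Trem2 falling from 138 to 96.2 CPM (edgeR adjusted p = 1.92e-06) while Spi1 went from 282 to 423 CPM. Neutrophils also carry this oxidase. Of 10 neutrophil markers 4 passed 3 counts in a library, Ly6g and Retnlg were at 0 in all libraries, and the sum was 5.59 to 6.23 CPM in control and 11 to 12.4 CPM in LPS libraries. Most of that sum was S100a8, also one of the partner genes below, while Mmp8 went the other way, with 32, 29 and 21 counts without LPS and 11, 10 and 12 with it. Hepatocyte markers reached 16.2 and 24.8 CPM in control replicates 2 and 3 and at most 0.547 CPM in any other library. Both control libraries are said below to hold hepatocyte RNA, from these markers alone. The source of that RNA was not tested. The part of these markers in the results below was not tested beyond refitting without those libraries. That refit kept only control replicate 1 as control, where fibroblast and smooth muscle markers summed to 18 CPM, the highest of any library.

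Of the 6 genes, 4 were tested and all 4 were called, with Cybb, Cyba and Ncf4 higher and Ncf1 lower with LPS. Calls at this threshold were frequent, since 34.3% of all tested genes were called, 18.7% as higher and 15.7% as lower. None of the 4 was a DEG by edgeR or by DESeq2, against 2.65% of all tested genes by edgeR (2.4% higher and 0.252% lower), and all 4 had an unadjusted edgeR p under 0.05, as did 42.8% of all tested genes. The change in Cybb was of another size than the other changes. Cybb rose 2.5-fold, whereas Cyba, Ncf1 and Ncf4 each moved by 8.53% to 11%.

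Cybb (ENSMUSG00000015340) lies on the minus strand of chromosome X at chrX:9435252-9487771 of mm10. Control replicates 1 to 3 yielded 2997, 3313 and 3224 Cybb counts, against 6914, 7606 and 7191 in the LPS replicates in the same order. Every LPS library was far above every control library, and the libraries within a group lay close together. Mean Cybb was 179 ± 7.88 CPM in control and 446 ± 14.9 CPM with LPS (SD, n = 3), and edgeR put the log2FC (log2 fold change, LPS over control) at 1.32 ± 0.05 (standard error, 95% interval 1.22 to 1.42, adjusted p = 8.3e-12). Of the 12296 tested genes, 346 (2.81%) had a larger log2 fold change. The interval ended below the DEG threshold of 1.5. Leaving out each library in turn gave 1.29 to 1.35, called in all 6 fits. No other gene in the table overlaps Cybb.

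**Figure D1:**
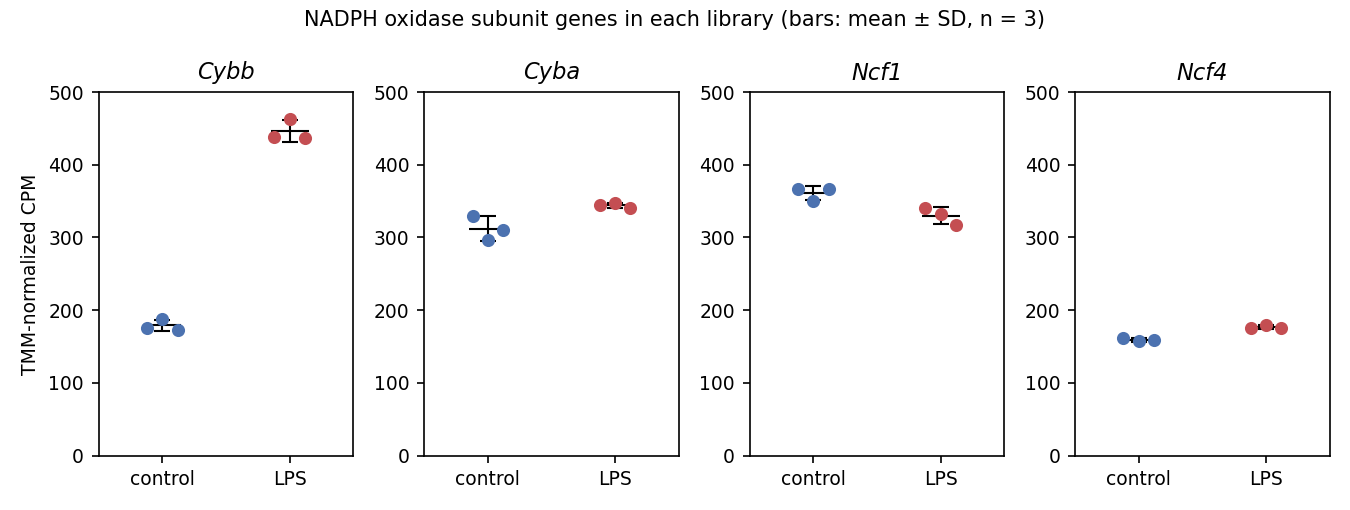
Level of the 4 tested NADPH oxidase genes in each library, in TMM-normalized CPM on a common axis from 0, with points for libraries and bars for the mean ± SD of 3. The Cybb libraries moved from 173 to 188 CPM in control to 437 to 463 CPM with LPS, while those of Cyba, Ncf1 and Ncf4 shifted by little.

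Cyba (ENSMUSG00000006519), on the minus strand of chromosome 8 at chr8:122424776-122432930, encodes the partner that NOX2 needs in the membrane. Its raw counts overlapped between the groups, being 5665, 5227 and 5762 without LPS and 5427, 5712 and 5603 with it. After TMM scaling the control libraries were at 330, 296 and 310 CPM and the LPS libraries at 344, 348 and 341 CPM, with all LPS libraries above all control libraries. Groups were separated in this way for 45.3% of all tested genes, 23.8% with LPS higher and 21.5% with LPS lower. Mean Cyba was 312 ± 17.3 CPM in control and 344 ± 3.63 CPM with LPS (SD, n = 3), with a log2FC of 0.14 ± 0.05 (95% interval 0.04 to 0.24) by edgeR (adjusted p = 0.025). The call rested on the scaling and on single libraries. With library totals alone, a setting chosen after seeing the data, the log2 fold change was 0.04 (edgeR adjusted p = 0.478), and the call was lost without control replicate 2, control replicate 3, LPS replicate 2 or LPS replicate 3, where the log2 fold change was 0.10, 0.13, 0.13 and 0.15 (edgeR adjusted p from 0.0505 to 0.134). Without both control libraries that held hepatocyte RNA it was 0.06 (edgeR adjusted p = 0.518).

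The starts of Cybb, Cyba and Ncf1 are printed here, picked with their changes known. Whether these sequences have a part in those changes was not tested. The windows below run from 250 bases before to 50 bases after the RefSeq start of each gene on GRCm38.p6, read 5′ to 3′ on the strand of the gene, and 5 of the 6 members had one. Capitals mark matches, on either strand, to 4 short patterns of letters. GAGGAA is the core bound by PU.1, a myeloid transcription factor. GAAA, any 2 bases, then GAAA is named for the interferon-stimulated response element. GGGA, any 4 bases, then CC is named for kappa B, the motif of NF-kappa B, and TGANTCA, with N any base, for AP-1. Patterns with free positions are looser than the motifs they are named for. The names below stand for these patterns only. The Cybb window covers chrX:9469275-9469574, the Cyba window chr8:122432891-122433190 and the Ncf1 window chr5:134229576-134229875, all on the minus strand. The RefSeq start of Cybb lies inside the gene interval of the deposited table, not at its end.
Cybb: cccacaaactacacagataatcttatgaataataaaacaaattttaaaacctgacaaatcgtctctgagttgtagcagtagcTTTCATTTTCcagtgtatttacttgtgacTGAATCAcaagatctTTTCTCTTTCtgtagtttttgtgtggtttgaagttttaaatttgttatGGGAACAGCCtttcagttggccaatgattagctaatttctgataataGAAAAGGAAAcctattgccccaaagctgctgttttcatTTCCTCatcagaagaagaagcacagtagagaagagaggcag
Cyba: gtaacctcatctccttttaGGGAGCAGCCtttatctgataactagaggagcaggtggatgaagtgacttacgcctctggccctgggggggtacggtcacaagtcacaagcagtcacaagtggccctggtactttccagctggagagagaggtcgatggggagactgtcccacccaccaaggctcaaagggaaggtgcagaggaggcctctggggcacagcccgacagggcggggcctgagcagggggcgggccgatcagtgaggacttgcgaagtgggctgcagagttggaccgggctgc
Ncf1: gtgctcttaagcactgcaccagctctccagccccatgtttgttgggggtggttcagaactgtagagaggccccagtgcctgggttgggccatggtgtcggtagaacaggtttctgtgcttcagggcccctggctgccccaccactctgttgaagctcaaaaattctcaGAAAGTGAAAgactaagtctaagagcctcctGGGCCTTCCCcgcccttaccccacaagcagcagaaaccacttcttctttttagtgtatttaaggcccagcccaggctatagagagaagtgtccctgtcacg
The Cybb window held 6 matches: 3 to the interferon-stimulated response element and 1 each to the PU.1 core, kappa B and AP-1 patterns. The PU.1 core lies on the opposite strand, from 10 bases after the start. The interferon-stimulated response element matches at -168 and -124 from the start are on the opposite strand too. The Cyba window held 1 match, to kappa B, and the Ncf1 window held 2, a match to the interferon-stimulated response element and a kappa B match on the opposite strand. The Nox1 window, not printed, also held 2, a PU.1 core and a kappa B match, although Nox1 was close to the limit of detection, and the Nox4 window held 0. Of all 32851 windows of this length, 28.3% held the PU.1 core, 3.44% the interferon-stimulated response element, 20.7% kappa B and 7.81% AP-1. These shares count windows with at least 1 match. How many windows held 3 matches to a motif, or 6 in all, was not counted. A match of letters is a description of the window and not a binding site.

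Among the cytosolic subunits, Ncf1 (ENSMUSG00000015950), the organizer that phosphorylation releases, lies on the minus strand of chromosome 5 at chr5:134220053-134229625. Control libraries carried 6285, 6174 and 6806 Ncf1 counts and LPS libraries 5381, 5452 and 5209. All LPS libraries were below all control libraries, in raw counts and in CPM. Mean Ncf1 was 361 ± 9.55 CPM in control and 330 ± 12.1 CPM with LPS (SD, n = 3), with a log2FC of -0.13 ± 0.04 (95% interval -0.22 to -0.04) by edgeR (adjusted p = 0.029). With library totals alone it was -0.23 (edgeR adjusted p = 5.67e-04), and the call was lost without control replicate 3, LPS replicate 2 or LPS replicate 3, at -0.12, -0.13 and -0.10 (edgeR adjusted p from 0.0699 to 0.129). Nor was it called without both control libraries with hepatocyte RNA (-0.15, edgeR adjusted p = 0.104). Gtf2ird2, on the opposite strand, overlaps Ncf1 in the table and held 212 to 234 counts per library. Whether the counting used strand is not given in the sources used here.

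Ncf4 (ENSMUSG00000071715), whose product binds phosphoinositide on the phagosome membrane, lies on the plus strand of chromosome 15 at chr15:78244801-78262580. Raw Ncf4 counts were 2772, 2774 and 2964 without LPS and 2767, 2952 and 2886 with it. These overlapped, whereas the CPM, at 162, 157 and 159 against 175, 180 and 176, did not. Mean Ncf4 was 159 ± 2.29 CPM in control and 177 ± 2.59 CPM with LPS (SD, n = 3), with a log2FC of 0.15 ± 0.04 (95% interval 0.06 to 0.24) by edgeR (adjusted p = 0.012). Here too library totals alone gave a value that was not called, 0.05 (edgeR adjusted p = 0.348), and the call was lost without control replicate 2, control replicate 3 or LPS replicate 2, at 0.13, 0.14 and 0.14 (edgeR adjusted p from 0.0505 to 0.0621). The same held without both control libraries with hepatocyte RNA (0.13, edgeR adjusted p = 0.182).

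**Figure D2:**
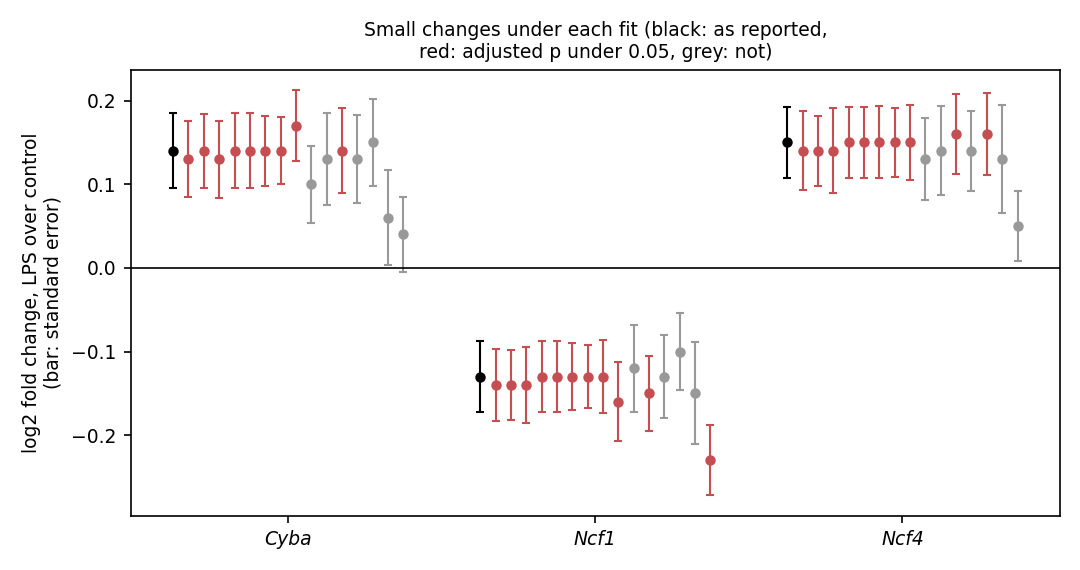
Log2 fold change of Cyba, Ncf1 and Ncf4 with its standard error under the reported fit (black) and each alternative (red where the adjusted p was under 0.05, grey where not), in the order of the alternatives. The sign held in every fit shown, while 6 of 15 alternatives for Cyba, 4 of 15 for Ncf1 and 5 of 15 for Ncf4 were not called.

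A ratio of counts within a library does not depend on the scaling between libraries. The ratio of Cybb to Cyba counts was 0.529, 0.634 and 0.56 without LPS, and 1.27, 1.33 and 1.28 with it. The log2 ratio went from -0.80 ± 0.133 to 0.37 ± 0.034 (SD, n = 3), a difference of 1.18, with no overlap of the groups (two-sided exact permutation test, p = 0.1, the smallest that 3 against 3 allows). Cybb counts thus passed Cyba counts in all 3 LPS libraries and in no control library. Counts also grow with gene length, which was 5808 bases for Cybb and 1039 for Cyba. The crossing therefore does not show which messenger RNA was more abundant. Per kilobase of gene length, Cybb stayed below Cyba with LPS, at 76.8 against 331 CPM. The ratio of Ncf1 to Ncf4 counts was 2.27, 2.23 and 2.3 in control and 1.94, 1.85 and 1.8 with LPS, a difference of -0.28 on the log2 scale without overlap (two-sided exact permutation test, p = 0.1). Every LPS library thus held less Ncf1 relative to Ncf4 than any control library.

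Levels of different genes were compared per kilobase of the gene length in the deposited table. In control cells the order was Cyba at 300 ± 16.7, Ncf1 at 98.5 ± 2.61, Ncf4 at 78.9 ± 1.13 and Cybb at 30.7 ± 1.36 CPM per kilobase (SD, n = 3), and no neighbours in this order overlapped. With LPS the order was Cyba at 331 ± 3.49, Ncf1 at 90.1 ± 3.31, Ncf4 at 87.6 ± 1.28 and Cybb at 76.8 ± 2.56 CPM per kilobase. Ncf1 and Ncf4 now overlapped, with libraries from 86.5 to 93 and from 86.7 to 89. By these lengths, Cybb stayed below both of them but was much nearer, and Cyba stayed above all. The order between genes depends on the single length taken for each gene. GENCODE M21 lists 5 transcripts for Cybb, 3 for Cyba, 7 for Ncf1 and 6 for Ncf4. Which of these transcripts the cells made was not tested.

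**Figure D3:**
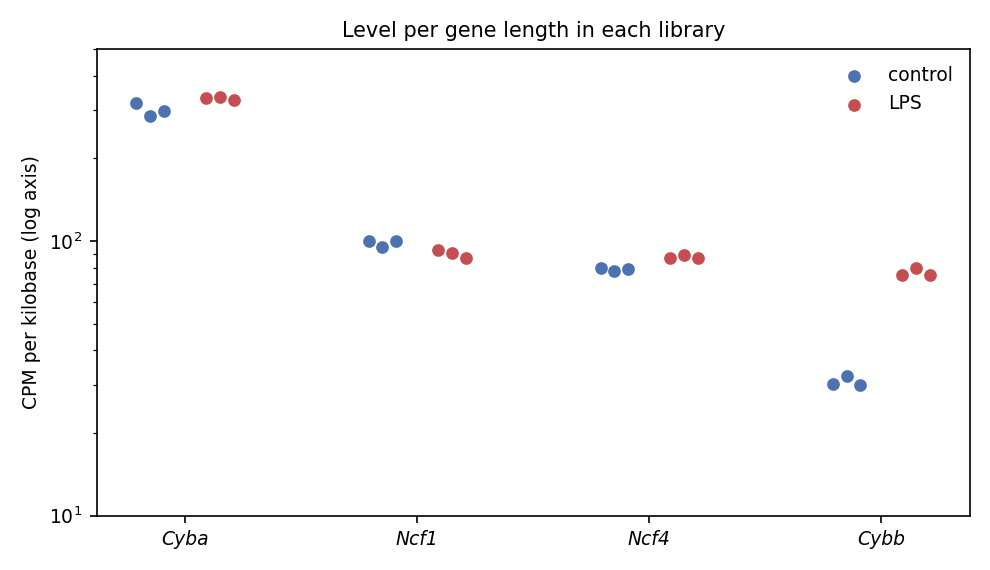
Level of the 4 tested members in each library, in CPM per kilobase of gene length on a log axis, control in blue and LPS in red. Cybb moved from about 30.7 to 76.8 and approached Ncf4 and Ncf1, while Cyba stayed highest.

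Nox1 (ENSMUSG00000031257, chrX:134086421-134221956, minus strand) was close to the limit of detection and below the filter. Only 4, 5 and 5 Nox1 counts were found without LPS and 2, 2 and 1 with it, and the groups did not overlap. The summed counts of 14 and 5 gave a ratio of LPS to control of 0.392, with an exact 95% counting interval from 0.111 to 1.15 that includes no change (two-sided exact permutation test on CPM, p = 0.1). Without the filter, edgeR gave an adjusted p of 0.51. Intestinal epithelium markers, 10 of 17 of which passed 3 counts in a library and none of which was at 0 in all, summed to 2.8, 16.3 and 0.484 CPM over the control replicates in order, and to 0.317, 0.609 and 11 CPM over the LPS replicates. Their part in the Nox1 counts was not tested. In the table Nox1 overlaps Xkrx on its own strand (0 to 11 counts per library) and, on the opposite strand, Arl13a (0 to 3 counts) and Cstf2 (1411 to 1874 counts).

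Nox4 (ENSMUSG00000030562, chr7:87246096-87398710, plus strand) yielded 0, 0 and 2 counts without LPS and 1, 1 and 0 with it. All libraries were under 3 counts, which correspond to 0.161 to 0.19 CPM, so no difference could be detected at this depth and no fold is given. Of the 6 kidney tubule markers none passed 3 counts in any library, and 3 were at 0 in all. All 9 fibroblast and smooth muscle markers passed 3 counts in a library, with sums of 18, 5.55 and 12.9 CPM over the control replicates in order and 16.3, 6.46 and 4.74 CPM over the LPS replicates. Col1a1 reached 70 counts, in control replicate 1. The part of either cell type in the Nox4 counts was not tested.

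The other genes of the pathway were taken from a list of 36 partners and regulators, of which 28 passed the filter. Of these 28, 2 were called higher and 4 lower, together 21.4% against 34.3% of all tested genes, with a median log2 fold change of -0.04. None was a DEG by edgeR or DESeq2, and 9 of the 28 had an unadjusted edgeR p under 0.05, where 42.8% of all tested genes did. With library totals alone 1 was called higher and 10 lower, together 39.3%, close to the 39.5% of all tested genes called under that scaling.

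The small GTPases that take part in the active complex did not pass the test: Rac1 was at 345 ± 5.35 and 340 ± 10 CPM (95% interval of the log2 fold change -0.11 to 0.06, but called lower with library totals alone, at -0.12 with an edgeR adjusted p = 0.0271), and Rac2 at 345 ± 3.17 and 357 ± 9.2 CPM (-0.03 to 0.13, and of the opposite sign with library totals alone). Cybc1, the chaperone (EROS) that NOX2 needs to mature, was at 64.2 ± 1.27 in control and 58.3 ± 2.22 CPM with LPS, a log2 fold change of -0.14 that missed the threshold (edgeR adjusted p = 0.0535) but was called with RLE size factors, with a replicate block and with library totals alone (edgeR adjusted p from 0.00234 to 0.0457). Nrros, which limits NOX2 by promoting its degradation, was at 101 ± 2.08 CPM in control and 88.8 ± 1.87 CPM with LPS. Its log2FC of -0.18 ± 0.04 passed the test (adjusted p = 0.0048 by edgeR), also in all 6 fits that left out a library.

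Among the other partners and regulators, Pla2g4a, the cytosolic phospholipase that releases arachidonic acid, had the lowest adjusted p of the list. Its counts were 2414, 2577 and 2545 without LPS and 1438, 1308 and 1325 with it, or 141 ± 4.59 and 83.8 ± 6.32 CPM (SD, n = 3), and its log2FC was -0.75 ± 0.06 by edgeR (adjusted p = 5.5e-08). Mapk14 (p38 alpha, a kinase of p47phox) was at 151 ± 0.968 CPM in control and 134 ± 2.49 CPM with LPS, with a log2FC of -0.17 ± 0.04 (adjusted p = 0.0054 by edgeR). It was not called when both control libraries with hepatocyte RNA were left out (-0.16, edgeR adjusted p = 0.0938). Hvcn1, the proton channel that balances the charge the oxidase moves, had 33, 25 and 26 counts in control and 8, 17 and 14 with LPS. With a log2FC of -0.97 ± 0.35 (adjusted p = 0.0447 by edgeR) it passed the test with all libraries, but in none of the 6 fits that left out a library, nor by DESeq2 (adjusted p = 0.145), and the opposite-strand gene Tctn1 (48 to 69 counts) overlaps it. S100a8, which encodes a calcium-binding protein that acts on the oxidase as a heterodimer with the S100a9 product, rose from 59, 77 and 78 counts to 178, 170 and 170, with a log2FC of 1.41 ± 0.14 by edgeR (adjusted p = 1.9e-06). The scaffold gene Sh3pxd2b was called at 0.14, and in 1 of the 6 fits that left out a library.

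**Figure D4:**
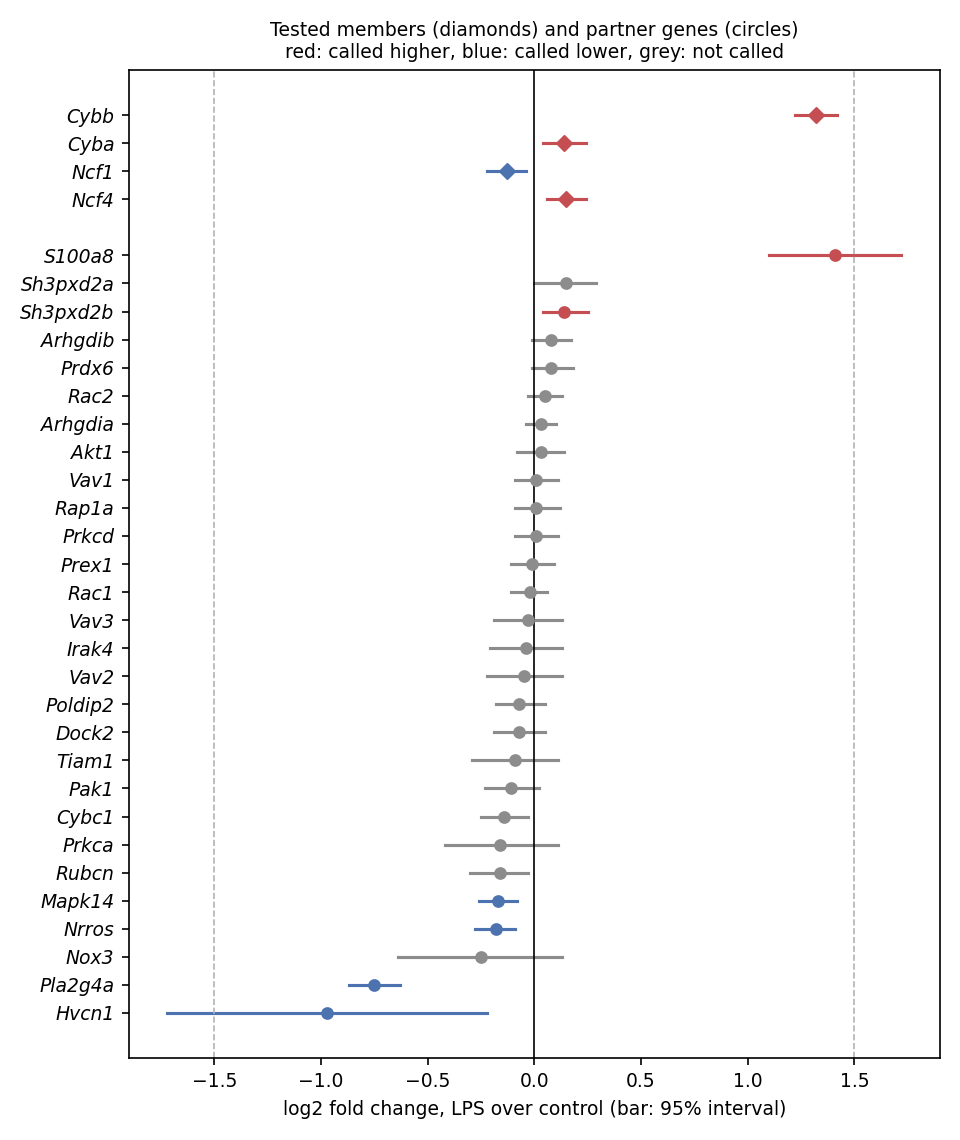
Log2 fold change (LPS over control) with its 95% interval for the 4 tested members (diamonds) and 28 tested partner genes (circles), red where called higher, blue where called lower and grey where not called, with dashed lines at the DEG threshold of 1.5 in each direction. Cybb and S100a8 stand to the right, Pla2g4a and Hvcn1 to the left, and most partners lie near 0.

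The remaining 8 genes of the list were below the filter. The NOX1 organizer gene Noxo1 had 1, 9 and 5 counts in control and 3, 10 and 10 with LPS, and Noxa1, Duox1, Duox2, Duoxa1, Duoxa2, Prkcb and S100a9 had at most 4 counts in any library. Across all 6 libraries, the 3 of 10454 well-counted genes (a mean of at least 50 counts) whose centred log2 levels lay nearest to those of Cybb were Sdc3, Nfkb1 and Irak2, at a root mean square difference of 0.034, 0.038 and 0.04. Sdc3 encodes syndecan 3, Nfkb1 the p105 precursor of an NF-kappa B subunit and Irak2 a kinase of Toll-like receptor signaling. Their log2 fold changes were 1.34, 1.36 and 1.30, beside 1.32 for Cybb. For Cyba the nearest were Hmga1b, Uck2 and Telo2, for Ncf1 Cdca7, Lamtor1 and Ctso, and for Ncf4 Ncdn, Slc6a17 and Sh3bp2, all within 0.016. With 2 groups of 3, this likeness mostly reflects the difference between the groups.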

How the data were processed

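The authors deposited a table of raw read counts per gene for 6 libraries, made per the submitters' processing notes with featureCounts 1.5.0-p3 on mm10. The aligner, the annotation release and the use of strand are not given in the sources used here. All 6 members had the same coordinates in GENCODE M21 on GRCm38. The authors' own comparison table, with fold changes and p-values, was not used, nor were its 18 per-library and 2 group mean columns.

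edgeR 4.0.16 (R 4.3.3) was used with TMM normalization, filterByExpr by group and a prior count of 0.125, without a replicate term. Adjusted p-values are over all tested genes, and a standard error is the log2 fold change over the square root of F. Totals of 16363767 to 17956772 counts make counting error small for the tested members and large for Nox1 and Nox4. Intervals of counts cover counting error only and not the spread between libraries. PCR copies were not told apart from separate molecules, so the counting error may be larger than these intervals show. Named genes were the members, all called partners with Rac1, Rac2, Cybc1, Nrros and Hvcn1, and the 3 genes nearest in pattern to each tested member. Partners below the filter, Nox3, and marker and overlapping genes given beside a result fall outside this rule and were chosen after their values were seen. A further gene of the partner list is not reported here and was left out of its counts. The members and lists were chosen with earlier results of these data known. Alternatives were DESeq2 1.42.0, a replicate block, leaving out each library, RLE size factors, no filter or a mean of 10 counts, robust dispersion and a larger prior count (2). Scaling by library totals, and leaving out both control libraries with hepatocyte RNA, were added after seeing the data. The fits were also run on simulated data with log2 changes of 1 and 2 in either direction. With 6 libraries edgeR recovered 99 and 100 of 100 changed genes at these sizes, with 6 false calls. Changes as small as those of Cyba, Ncf1 and Ncf4 were not simulated. Figures used matplotlib 3.10.9.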

Additional observations from a re-analysis of the deposited data

How the results depend on the processing

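Cybb stayed called under all 15 alternatives, from 1.22 to 1.35 on the log2 scale. The smaller changes kept their direction but not always their call. With each library left out in turn, Cyba ran from 0.10 to 0.17, Ncf1 from -0.16 to -0.10 and Ncf4 from 0.13 to 0.16. With library totals alone, which moved the median of all genes by -0.098, Cyba was at 0.04 and Ncf4 at 0.05, Rac2 turned to -0.05, and of all tested genes 1520 were called higher and 3342 lower, against 2294 and 1927 with TMM. There, 1 partner was called higher and 10 lower, against 2 and 4 with TMM. Of those 2 higher calls, S100a8 and Sh3pxd2b, only S100a8 was left by DESeq2 (1 call), and leaving out each library gave 1 to 2. With control replicate 1 as the only control library, assumed to vary like the LPS libraries, Cyba was at 0.06, Ncf1 at -0.15 and Ncf4 at 0.13, none of them called (edgeR adjusted p from 0.104 to 0.518), while 1 partner and 1681 of all genes were called higher, and 2 partners and 1151 of all genes lower. These fits have fewer samples. Hvcn1 lost its call in 10 of 15 alternatives and Sh3pxd2b in 8. Deviations of same-numbered libraries from their group means correlated at 0.131, 0.048 and 0.005, so the numbers are not taken to pair samples. With the replicate block, the log2 fold changes were 1.32 for Cybb, 0.14 for Cyba, -0.13 for Ncf1 and 0.15 for Ncf4, with 2454 of all genes called higher and 2020 lower, and LPS replicate 3 did not correlate best with its own number. Depth limits what can be said of Nox1 and Nox4.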

Other observations

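S100a8 and S100a9, whose products normally work as a heterodimer, differed in level in these cells. S100a8 rose to between 170 and 178 counts with LPS, while S100a9 had 2, 0 and 1 counts in control and 4, 0 and 0 with LPS. Nox3, known mainly from the inner ear, had 129, 137 and 94 counts in control and 79, 98 and 99 with LPS (log2 fold change -0.25, 95% interval -0.64 to 0.13), far more counts than Nox1 or Nox4, and no gene in the table overlaps it. Spi1, which encodes PU.1, had 5016, 4804 and 5242 counts in control and 6762, 7114 and 6705 with LPS (edgeR adjusted p = 5.43e-08). Nox3, S100a9 and Spi1 were singled out here after their values were seen.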
